A study of Homo sapiens with 38 samples.

Results

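The genes of the T-cell receptor and of its CD3 signalling chains were described in Jurkat, a long-established line from a human T-cell acute lymphoblastic leukaemia, from lists of ChIP-seq regions for the transcription factors GATA3 and BHLHE40 and for the histone mark H3K27ac. The members were 8 of 59675 RefSeq gene records: TRAC, TRBC1 and TRBC2 for the constant parts of the receptor, CD3D, CD3E, CD3G and CD247 for the signalling chains, and DAD1, the gene next to TRAC. They were chosen by gene name, with earlier results of these data known. Every listed region touching a gene record or the 50 kb on each side of it was taken, and windows that ran into each other were joined, which left 4 windows. These held 28 of 29009 GATA3 regions, 25 of 26205 BHLHE40 regions and 75 of 113570 H3K27ac regions.

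The series labels 38 samples in 19 groups of 2, with input controls, cells carrying an editing guide or a control guide, and cells given a BHLHE40 or a control lentivirus. The lists analysed here come from 3 groups of genotype Ctrl_LV, the control lentivirus, and the other 16 groups were not analysed here. Per the labels, all of them received PMA (50 ng/ml) together with ionomycin (500 ng/ml), drugs that activate signalling downstream of the receptor without the receptor being bound. The treatment protocol, which names guide constructs, also gives lentiviral transduction and 3 days of puromycin selection, and it is attached to the Ctrl_LV samples too. The duration is 5 hours in the sample labels and 2 hours in the treatment protocol, and this was not resolved. Each list stands for 2 samples together, so no value can be given per sample, no spread between samples can be measured and no test between samples was possible. Nothing says whether the samples were separate cultures, so repeats may be technical, and the read depth is unknown.

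The αβ T-cell receptor binds peptide on another cell through its α and β chains, and the CD3γ, CD3δ, CD3ε and ζ chains carry the tyrosine motifs that pass the signal into the cell. The α and β genes are assembled in developing T cells by joining separate V, D and J segments to the constant genes, and enhancers placed beyond TRAC and beyond TRBC2 are known to drive them. CD3D and CD3G are neighbours that face away from each other, with CD3E beside them, while CD247, which encodes ζ, lies on another chromosome. GATA3 is a zinc-finger factor needed for T-cell development that binds GATA sequences, and BHLHE40 is a basic helix-loop-helix factor, induced on T-cell activation, that binds E-boxes such as CACGTG. H3K27ac marks active promoters and enhancers. Positions are those of the reference genome, and in a line whose receptor genes have been rearranged the DNA between joined segments may be missing, so the distances in its own chromosomes may be shorter.

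The sequence at the strongest place is shown first, because both factor summits lie in it. A summit is the base in a region where the peak caller put its maximum. The RefSeq promoter sequences (GRCh38.p14) hold 250 bases before and 50 after a gene start, and one of those of LOC105370399, a non-coding RNA gene between TRAC and DAD1, covers chr14:22556316-22556615 on the plus strand. Capitals in all sequences below mark matches, on either strand, to 4 GATA motifs, which are AGATAA and AGATAG and also TGATAA and TGATAG, to the E-box CACGTG, the RUNX-type TGTGGT, the cAMP-response element TGACGTCA and the ETS-type GGAAGT.
LOC105370399: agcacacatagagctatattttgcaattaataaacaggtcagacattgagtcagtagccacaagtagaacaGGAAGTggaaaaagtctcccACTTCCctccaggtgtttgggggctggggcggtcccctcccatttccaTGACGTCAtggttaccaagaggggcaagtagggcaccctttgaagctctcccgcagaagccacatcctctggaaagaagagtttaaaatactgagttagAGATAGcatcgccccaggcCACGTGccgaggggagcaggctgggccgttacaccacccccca
Positions are counted from 1 at the 5′ end. The GATA3 summit fell on position 236, 3 bp before the AGATAG match at positions 239 to 244. The BHLHE40 summit fell on position 204, 54 bp before the CACGTG match at 258 to 263. CACGTG was nearer to the GATA3 summit, at 22 bp, and the BHLHE40 summit was nearer to AGATAG, at 35 bp. TGACGTCA stood at 140 to 147, and ETS-type matches stood at 72 to 77 and, on the other strand, at 92 to 97. A looser E-box search, CANNTG, which also takes every CACGTG, added CAGGTG at 101 to 106. No TGTGGT was found in these letters. Among 35116 RefSeq promoters of 300 bases, 25.0% held a GATA match, 7.26% CACGTG, 68.7% CANNTG, 13.1% TGTGGT, 1.85% TGACGTCA and 22.8% GGAAGT. A match is a description of the letters and not a measured binding site.

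This place lies between the constant gene of the α chain and DAD1, where the T-cell receptor α enhancer is known to be. The GATA3 region (chr14:22555315-22557824, summit 22556551) had a signal value, the authors' measure of enrichment, of 241.9, and only 3 regions of the whole list were higher. The BHLHE40 region (chr14:22555249-22557741, summit 22556519) had a signal value of 195.4, rank 2 of its list. The summits were 32 bp apart, and the GATA3 summit lay 4419 bp beyond the TRAC record and 8356 bp before that of DAD1. H3K27ac was listed as a pair of regions here with a gap of 166 bp between them, and the BHLHE40 summit fell in that gap while the GATA3 summit fell just inside the edge of the region on the DAD1 side. The one on the TRAC side had a signal value of 7.59 and a −log10 q, the peak caller's corrected significance, of 376, and the one on the DAD1 side had 5.49 and 225. Their summits lay 469 bp and 215 bp from the GATA3 summit. Thus both factors had their maxima between the H3K27ac maxima and not on them.

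**Figure D1:**
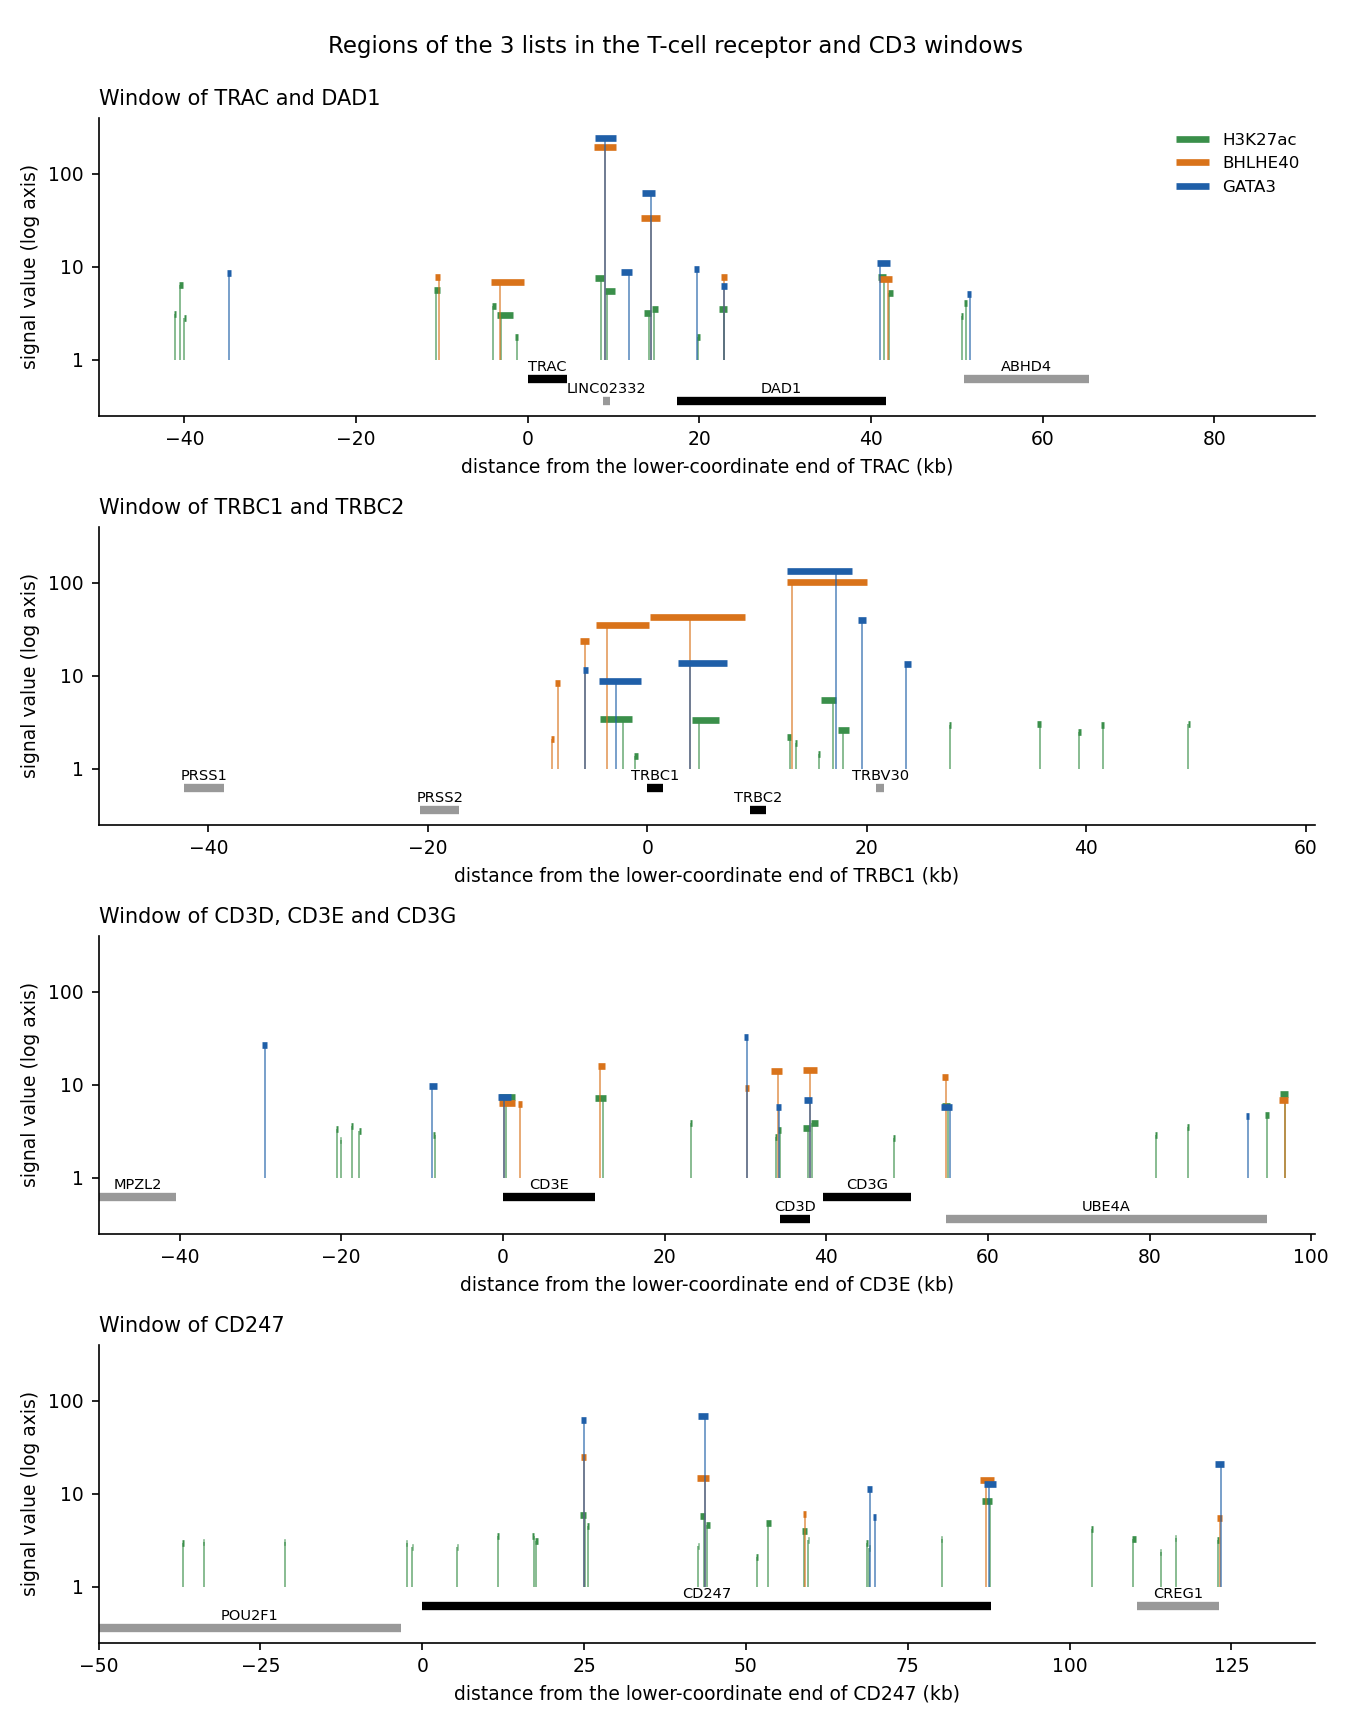
Regions of the 3 lists in the 4 windows: each horizontal bar is a region, drawn over its width at its signal value (log axis), the thin vertical line marks its summit, and black and grey bars below are member and other gene records, against distance in kb from the lower end of TRAC, TRBC1, CD3E or CD247. The highest GATA3 and BHLHE40 bars, at 241.9 and 195.4, stand together between TRAC and DAD1, and the widest bars lie around TRBC1 and TRBC2. Signal values of different lists are on different scales.

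A second place shared by both factors lay nearer to DAD1, which encodes a subunit of the complex that attaches sugars to new proteins. The GATA3 region there (chr14:22560823-22562342) had a signal value of 62.1 and the BHLHE40 region (chr14:22560671-22562870) one of 33.6, ranks 931 and 1031. The summits were 55 bp apart and about 3.0 kb from the DAD1 record, again between paired H3K27ac regions with signal values of 3.22 and 3.53. At the start of DAD1, which is read on the minus strand, GATA3 had a signal value of 11.1 and BHLHE40 of 7.32, with summits 893 bp apart. H3K27ac was listed on both sides of that start, at 7.85 and 5.26, and the first was the highest H3K27ac value of the window. A further pair inside DAD1 had summits 5 bp apart, with a GATA3 signal value of 6.16 and a BHLHE40 one of 7.69. The constant gene TRAC had none of the 3 kinds of region inside its own record. The nearest on its V and J side was a BHLHE40 region of 3781 bp and signal value 6.88 (chr14:22543263-22547043), with H3K27ac regions under it and no GATA3 region.

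The β-chain window differed in shape: its factor regions were wide. Beyond TRBC2, where the β enhancer is known to be, the BHLHE40 region spanned 7331 bp (chr7:142804412-142811742) with a signal value of 103.3, rank 39. GATA3 spanned 5846 bp there (chr7:142804466-142810311) with 135.2, rank 91. Unlike at the α enhancer, the summits stood 4028 bp apart: the BHLHE40 summit lay 2352 bp beyond TRBC2 and the GATA3 summit 6380 bp beyond it. The H3K27ac region with the highest signal value of the window (chr7:142807515-142808861, signal value 5.51, −log10 q 423) had its summit 299 bp from that of GATA3. The other 4 H3K27ac regions under this stretch had signal values from 1.45 to 2.61. A separate GATA3 region of signal value 39.7 lay under the far end of the BHLHE40 region, and a further one of 13.4, beyond it, overlapped neither other list. In all of GATA3's list 4 regions reached 5000 bp, and 1 of them was this one. BHLHE40 had 95 such regions, 2 of them in this window.

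Between TRBC1 and TRBC2, over the D and J segments that precede TRBC2, BHLHE40 had a region of 8666 bp that starts inside the TRBC1 record (chr7:142791969-142800634, signal value 43.3, rank 538). GATA3 in the same place had 13.8, rank 10980, with its summit 10 bp away, so this place ranked far higher among BHLHE40 regions than among GATA3 regions. The same held before TRBC1, where BHLHE40 had 35.5 (rank 907) over 4841 bp and GATA3 8.83 (rank 19625), with summits 862 bp apart. At another shared place, farther out on the D and J side of TRBC1, the values were 23.7 (rank 2196) and 11.6 (rank 13951), with summits 15 bp apart and no H3K27ac region. H3K27ac covered the wide places before TRBC1 and before TRBC2 with signal values of 3.41 and 3.37 and −log10 q of 131 and 124. The weakest listed BHLHE40 region of all 4 windows, at 2.09, was also here.

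The signalling chains had lower factor signal values than the receptor enhancers, and their regions stood at gene ends, inside genes and between genes. The start of CD3D was shared by all 3 lists. CD3D is read on the minus strand, and its RefSeq promoter is shown for chr11:118342676-118342955, since both summits lie in it.
CD3D: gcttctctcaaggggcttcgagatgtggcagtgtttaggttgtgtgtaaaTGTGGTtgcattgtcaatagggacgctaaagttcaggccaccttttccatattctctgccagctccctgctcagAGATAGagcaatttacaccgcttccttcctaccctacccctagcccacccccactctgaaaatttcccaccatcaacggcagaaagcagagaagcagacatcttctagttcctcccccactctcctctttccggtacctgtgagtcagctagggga
Both summits, 3 bp apart, fell close after the start. AGATAG at positions 125 to 130 and TGTGGT at 51 to 56 were its only matches, and no E-box match was found. BHLHE40 had a signal value of 14.5 (chr11:118341834-118343531) and GATA3 of 6.87 (chr11:118342002-118343009). H3K27ac was again split around the summits, with signal values of 3.41 and 3.92. CD3D and CD3G are 1638 bp apart, and CD3G had no factor region with a summit nearer than this one: its lower end was reached within 1 kb by the BHLHE40 region and by the H3K27ac region of 3.92, and not by the GATA3 region.

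At the other end of CD3D the summits were 31 bp apart, with signal values of 14.2 for BHLHE40 and 5.81 for GATA3. CD3E, whose product pairs with both CD3γ and CD3δ, had both factors at the lower-coordinate end, with summits 16 bp apart, 7.36 for GATA3 and 6.44 for BHLHE40, and H3K27ac at 7.34. At its higher end BHLHE40 had 15.8 (rank 5319), its highest value of this window, with H3K27ac at 7.16 and no GATA3 region. The highest GATA3 value of the window, 32.4 (rank 3154, chr11:118334609-118335090), lay between CD3E and CD3D, 4080 bp from CD3D. BHLHE40 was listed there too, at 9.30 (rank 13218) with its summit 8 bp away, but no H3K27ac region was. GATA3 also had 3 regions without BHLHE40 in this window, of signal values 26.7, 9.79 and 4.61.

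CD247 differed from the CD3 cluster in that its strongest factor regions lay inside the gene. GATA3 reached 69.3 (rank 705, chr1:167473184-167474828) and 63.0 (rank 904, chr1:167455205-167455994). BHLHE40 at the same places had 15.0 (rank 5908) and 25.1 (rank 1974), with summits 26 bp and 7 bp away. Both places overlap the record of the non-coding RNA gene LOC101928512 as well, and exons and introns were not told apart. H3K27ac there had its highest values at 5.78 and 5.91. At the start of CD247, read on the minus strand, H3K27ac had its highest value of the window, 8.46 with −log10 q 124, while GATA3 had 12.7 and BHLHE40 14.2 with summits 424 bp apart.
CD247: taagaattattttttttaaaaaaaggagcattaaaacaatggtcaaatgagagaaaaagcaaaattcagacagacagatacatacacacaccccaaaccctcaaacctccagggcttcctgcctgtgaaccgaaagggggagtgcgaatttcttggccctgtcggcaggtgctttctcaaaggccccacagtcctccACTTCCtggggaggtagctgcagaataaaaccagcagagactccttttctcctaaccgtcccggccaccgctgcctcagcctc
DAD1: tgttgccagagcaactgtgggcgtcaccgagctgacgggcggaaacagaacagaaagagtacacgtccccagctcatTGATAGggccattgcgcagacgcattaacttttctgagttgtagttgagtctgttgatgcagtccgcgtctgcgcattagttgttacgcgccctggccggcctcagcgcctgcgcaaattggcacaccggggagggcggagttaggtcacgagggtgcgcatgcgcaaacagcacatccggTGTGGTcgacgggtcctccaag
These promoters (chr1:167518500-167518779 for CD247 and chr14:22589195-22589474 for DAD1, both on the minus strand) are shown beside that of CD3D because they are the other members with a RefSeq entry. CD247 had GGAAGT on the opposite strand at positions 198 to 203. DAD1 had TGATAG at 78 to 83 and TGTGGT at 259 to 264, and so shares a GATA and a RUNX-type match with CD3D. Of all RefSeq promoters 25.0% held a GATA match and 13.1% TGTGGT, and how many held both was not counted. The GATA3 summit lay outside the bases searched for DAD1 and CD247. In CD3D it fell on position 267, away from AGATAG at 125 to 130. All 3 member promoters lay under a BHLHE40 region and none held CACGTG. The looser CANNTG matched at 2 places in the promoter of CD247, 1 in that of DAD1 and none in that of CD3D. The match in DAD1, CAACTG at 12 to 17, starts at the BHLHE40 summit, which fell on position 12. Of all RefSeq promoters 68.7% held CANNTG. Only 7.26% of all RefSeq promoters held the stricter E-box, so its lack in these 3 sets nothing apart. The 3 BHLHE40 regions were 1576 to 2082 bp wide, and only 300 bases of each were searched. For CD247 the BHLHE40 summit lay outside those bases. Whether the rest of these regions holds the E-box was not tested.

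The height of these regions was set beside the windows of all 20033 protein-coding genes, taken the same way. A window of this size held at least 1 region in 76.1% of genes for GATA3, 80.0% for BHLHE40 and 92.6% for H3K27ac, so that all 8 members having one of each is close to what most genes show. The strongest region set the receptor genes apart. Only 7 protein-coding windows, 0.0349%, held a GATA3 region as strong as that of TRAC and DAD1, and 3 windows, 0.0150%, a BHLHE40 region as strong. Neighbouring genes share regions, and DAD1 itself is one of these. For TRBC1 and TRBC2 the shares were 0.734% for GATA3 and 0.295% for BHLHE40. CD247 followed at 5.16% and 16.9%, and the CD3 cluster at 19.4% and 39.3%. H3K27ac gave another order: the strongest H3K27ac regions were matched in 42.8% of windows for CD247, 48.1% for TRAC and DAD1, 47.8% to 53.1% for the CD3 genes and 68.2% for TRBC1 and TRBC2. The receptor windows that ranked highest for the factors were thus not high for the signal value of the mark, although they were for the length it covered.

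**Figure D2:**
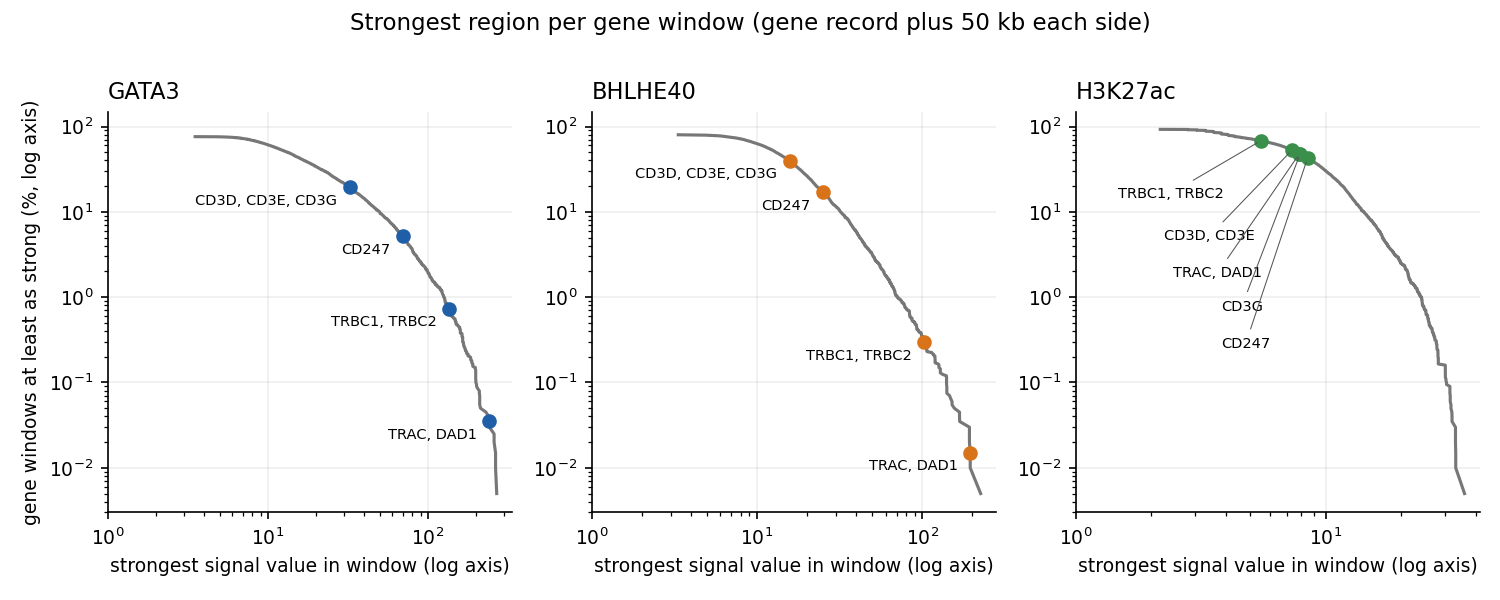
Share of protein-coding gene windows (vertical, percent, log axis) whose strongest region is at least as strong as the signal value on the horizontal axis (log axis), one panel per list, with the members as points on the grey curve. TRAC and DAD1 sit at the far end of the GATA3 and BHLHE40 curves, at 0.0349% and 0.0150%, and all members sit in the upper left of the H3K27ac curve.

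How much of a window was covered told the windows apart in another way. GATA3 covered 14.4% and BHLHE40 20.1% of the β window, against 6.41% and 7.91% of the α window, 4.71% and 5.82% of the CD3 window and 3.59% and 3.18% of the CD247 window. H3K27ac covered 9.14%, 8.04%, 6.96% and 5.88% in the same order. The window of TRBC1 taken alone was 15.7% covered by GATA3, which 0.0150% of protein-coding windows reached, and 22.0% by BHLHE40, which 0.0749% reached. H3K27ac covered 10.9% of the window of TRAC alone and 9.98% of that of TRBC1, beside a median of 2.29%, and 0.265% and 0.534% of protein-coding windows were covered as much. The number of regions was set against window length, since the windows run from 110.836 to 187.89 kb. GATA3 had 5.64 regions per 100 kb in the α window, 5.41 in the β window, 5.32 in the CD3 window and 3.19 at CD247. BHLHE40 had 4.23, 5.41, 5.32 and 2.66 in the same order, so CD247 was lowest for both factors. H3K27ac was closer to even, with 12.0, 11.7, 12.0 and 14.4, and CD247 was highest.

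Gene ends were compared next. The gene table gives no strand, and the promoter sequences give it for 3 members, so both ends of each record were used. BHLHE40 was listed within 1 kb of an end at all 8 members, beside 46.9% of protein-coding genes. H3K27ac was listed at 6 members, beside 56.3%, and GATA3 at 5, beside 22.8%. All 3 lists met at DAD1, TRBC1, CD3D, CD3E and CD247, 5 of 8, beside 20.5%. TRBC1 counted through a weak H3K27ac region, of signal value 1.38 and −log10 q 3.92. The factor regions that reached it were wide, with summits 2815 bp away for GATA3 and at least 2484 bp away for BHLHE40. At −log10 q of at least 5, H3K27ac was listed at 5 members and not at TRBC1. The share of all protein-coding genes at that cut was not counted. TRAC and TRBC2 had BHLHE40 only, from wide regions with summits 3268 bp and 5416 bp away, and CD3G had BHLHE40 and H3K27ac. With so few members, several of which share regions, these shares are descriptions.

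Other genes of the pathway were counted at their ends in the same way. Of 18 genes of early receptor signalling, 12 had GATA3, 16 BHLHE40, 17 H3K27ac and 12 all 3. In the same order, the shares were 66.7%, 88.9%, 94.4% and 66.7%, beside 22.8%, 46.9%, 56.3% and 20.5% of all protein-coding genes. CD2, an adhesion receptor, had a GATA3 signal value of 12.8 and a BHLHE40 one of 48.6 at an end. LCK, the kinase that phosphorylates the CD3 chains, had BHLHE40 at 15.3 and H3K27ac at 6.59 and no GATA3 region there, and the same was true of LAT, the adaptor downstream of ZAP70, at 17.9 and 5.64. GRAP2 had none of the 3. Of 4 genes of other receptor chains, TRDC, TRGC1 and PTCRA had no region of any list at their ends, and TRGC2 had only H3K27ac, at 4.23. With 4 genes, and 22.8% of all protein-coding genes having GATA3 at an end, these counts set nothing apart.

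The cell type of the label was read from H3K27ac at marker gene ends. Of 13 T-cell markers 12 had H3K27ac, the exception being TCF7, and 4 of these 13 are members. CD2, CD5, CD6, CD28, LCK, ZAP70 and LAT are also among the signalling genes counted above. Only BCL11B and TCF7 are in neither list, so this count is not independent of the earlier ones. Of 9 B-cell markers 2 had it (CD79A and BTK), of 8 myeloid markers 3 (FCER1G, TYROBP and CD33) and of 5 erythroid markers 1 (EPOR). Each of these H3K27ac shares for other lineages was below the 56.3% of all protein-coding genes. GATA3 was listed at 3 of the B-cell markers (CD22, MS4A1 and BTK), 33.3%, beside 22.8% of all protein-coding genes. None of the myeloid or erythroid markers had GATA3. BHLHE40 was listed at 22.2% of the B-cell, 25.0% of the myeloid and 20.0% of the erythroid markers, beside 46.9%. BTK had all 3 lists, at 23.8 for GATA3, 17.2 for BHLHE40 and 9.56 for H3K27ac. With so few genes, the factor counts set nothing apart.

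**Figure D3:**
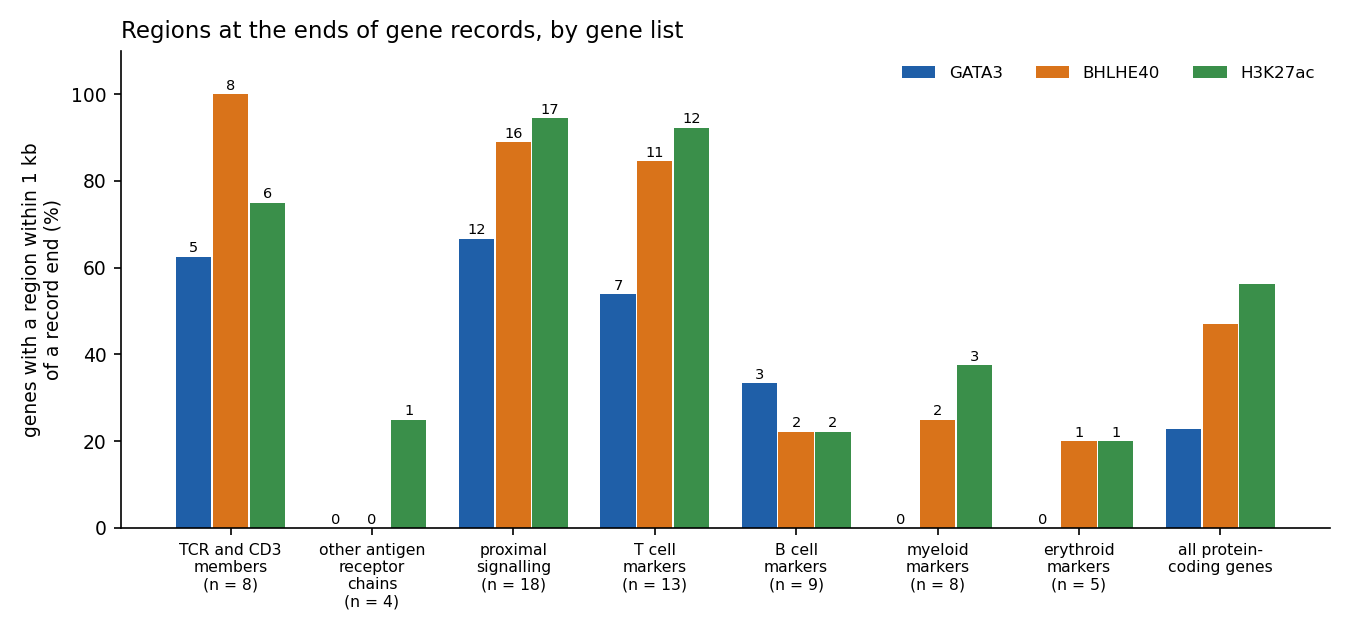
Percent of genes (vertical) with a GATA3, BHLHE40 or H3K27ac region within 1 kb of an end of the gene record, for each gene list and, at the right, for all protein-coding genes. Numbers above bars count genes. The members and the signalling list stand above all protein-coding genes for each list, with BHLHE40 at 8 of 8 members, and the other receptor chains stand below.

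Sharing between the factors was a little more common in the windows than in the lists as wholes, by less than the counting error of so few regions. Of the 28 GATA3 regions 18 overlapped BHLHE40, 64.3% (exact binomial 95% interval 44.1% to 81.4%), beside 48.7% of the whole list. Of the 25 BHLHE40 regions 17 overlapped GATA3, 68.0% (46.5% to 85.1%), beside 53.0%. Overlap with H3K27ac was 67.9% (47.6% to 84.1%) for GATA3, beside 49.1%, and 80.0% (59.3% to 93.2%) for BHLHE40, beside 76.4%. Without the window of TRAC and DAD1 the last share was 73.7%, and without that of CD247 75.0%, both below that of the whole list. All 4 intervals hold the value of the whole list. Intervals cover counting error only, and neighbouring regions are not independent.

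H3K27ac regions that met a factor were compared with those that did not. Of the 75 H3K27ac regions 39 overlapped a factor, 27 of them both. Those 39 had a median −log10 q of 29.5 and a median width of 716 bp, and the other 36 had 2.91 and 228 bp. Their signal values were closer, with medians of 3.51 and 3.09, and in the β window the order was the other way, 2.41 with a factor and 2.97 without. In the whole list the median −log10 q was 9.10 for 30000 regions with a factor and 2.58 for 83570 without. The median signal values there were 4.11 and 3.15. H3K27ac overlapped GATA3 in 42.7% (31.3% to 54.6%) of the regions in the windows, beside 15.3% of the list, and BHLHE40 in 45.3% (33.8% to 57.3%), beside 22.9%. Wider regions overlap others more easily, and the part of width in this was not tested.

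Summits of the 18 shared GATA3 regions lay a median of 31.5 bp from the nearest BHLHE40 summit of an overlapping region, with a range of 3 to 6354 bp, beside 35 bp for the 14123 shared regions of the list. Within 50 bp were 10 of 18, 55.6%, beside 61.5%. Beyond 500 bp were 5 of 18, 27.8%, beside 6.59%, and 3 of these 5 were in the β window. The distances of 4028 and 6354 bp there were measured from separate GATA3 regions to the same BHLHE40 summit, in a region of 7331 bp, so they are not separate BHLHE40 places. The medians were 43.5 bp for the α window, 862 bp for the β window, 16 bp for the CD3 window and 81 bp for CD247. Only the β window had shared regions over 3000 bp wide, and a wide region leaves more room for summits to differ.

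**Figure D4:**
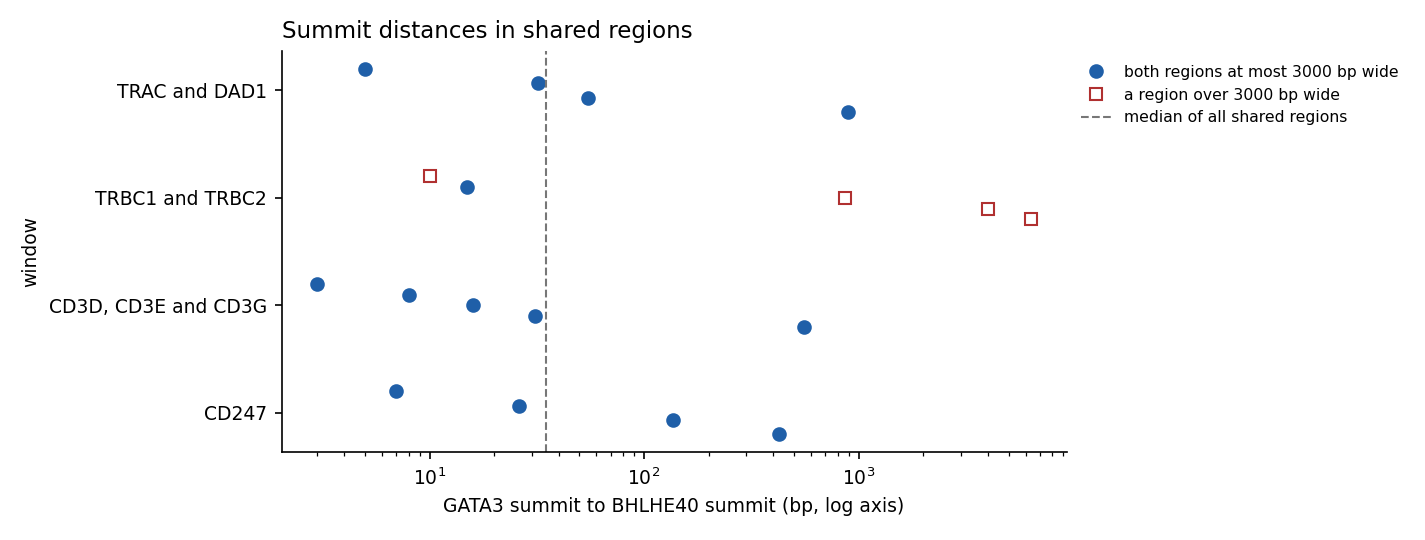
Distance in bp (log axis) between the GATA3 summit and the BHLHE40 summit for each of the 18 shared regions, by window, with open squares where a region is wider than 3000 bp and the dashed line at the median of all shared regions, 35 bp. Distances of 3 to 55 bp make up most points, and the longest, 4028 and 6354 bp, are from the β window.

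H3K27ac in the β window combined low signal values with high significance. For each region the number of regions in the whole list with no higher signal value and at least as high a −log10 q was counted. For the 8 H3K27ac regions that overlap factors in the β window this number was between 2 and 7 of 113570. The main β enhancer region, with 5.51 and 423, had 2, itself included. At most 0.1% of the list stood beyond 8 of 13 regions in the β window, 5 of 17 in the α window, 5 of 18 in the CD3 window and none of 27 at CD247, beside 1.45% of all regions of the list. The α enhancer regions had 4 and 5. What a signal value is relative to is not given in the sources used here.

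**Figure D5:**
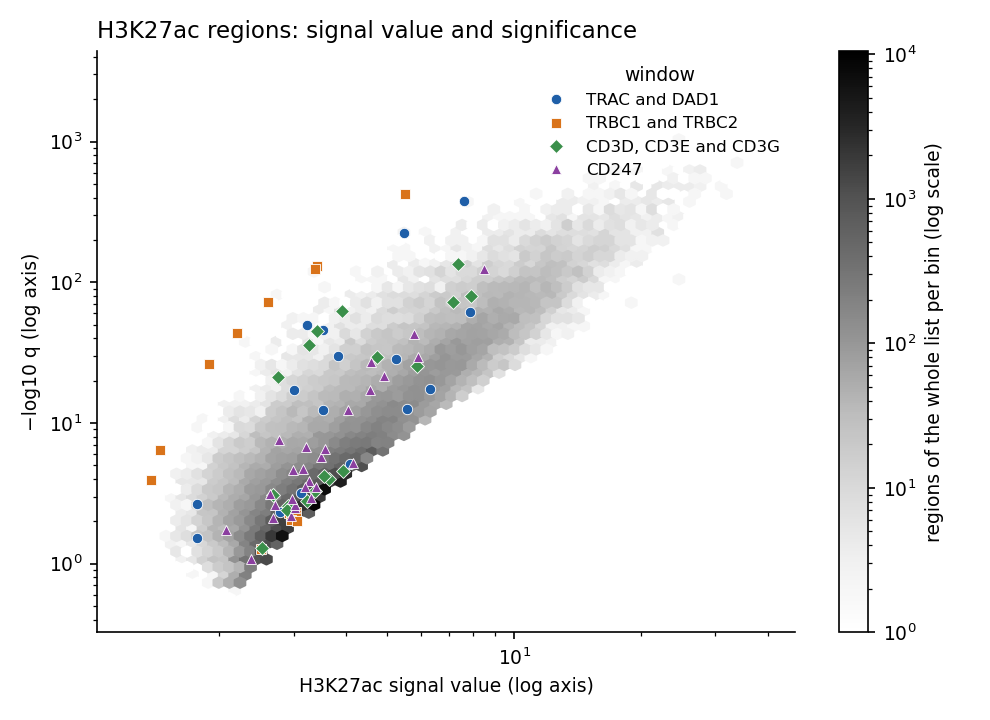
Signal value (horizontal) and −log10 q (vertical) of H3K27ac regions, both on log axes, with the 75 regions of the windows as coloured points over the whole list in grey. The orange squares of the β window with −log10 q above 3 lie along the upper left edge of the grey cloud, and the triangles of CD247 lie within it.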

How the data were processed

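The deposited lists hold ChIP-seq regions of stimulated Jurkat cells in narrowPeak layout, 1 list for each Ctrl_LV group of 2 samples. The submitters' processing notes name bcl2fastq 2.20, MACS2 with no version and the build hg38, with no roles; the aligner, filters and use of input are not given in the sources used here. Per the deposited list names, the factor lists were kept at an irreproducible discovery rate (IDR) of 0.05 and the H3K27ac list was called on pooled samples, so weak regions are more common in the latter. The authors' score per region follows the IDR in the factor lists, where 540 stands for 0.05 and 830 for 0.01. The signal value is the authors' enrichment per region, and the −log10 q-value is also as deposited. These describe and rank regions within a list only.

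Regions were joined to RefSeq gene records of GRCh38.p14 (1-based, overlap of at least 1 bp). Depth is unknown, and regions are not replicates, so nothing was tested between conditions. Shares have exact (Clopper-Pearson) 95% binomial intervals. Functions were tested on the GATA3 regions of chromosome 1, with a known share of them copied and their summits moved by a known distance. Named were the 8 members, in each window the strongest region of each list, the enhancer regions and the regions at gene ends, and others by count; members, lists and added results were chosen with earlier results of these data known. Motifs were searched only in RefSeq promoters, since no genome was used, and 3 of 8 members had one. Alternatives were stricter scores or q-values, other windows, other overlap definitions, leaving out each window, and, added after seeing the data, pairs of regions of at most 3000 bp. Intervals came from scipy 1.17.1, tables from pandas 2.3.3 with numpy 2.4.6, and figures from matplotlib 3.10.9, under Python 3.11.15.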

Additional observations from a re-analysis of the deposited data

How the results depend on the processing

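Of 56 alternatives, 47 were counted as leaving a result close to its reported value, and 9 as moving it. Close was taken broadly. It included 60 against 75 H3K27ac regions with windows of 25 kb on each side. It also included 53.6% against 67.9% of GATA3 regions overlapping H3K27ac, when only H3K27ac regions with −log10 q of at least 5 were used. Also counted as close was the share of BHLHE40 regions that overlap H3K27ac, 80.0% beside 76.4% of the whole list. Yet it fell below that of the whole list without the window of TRAC and DAD1 (73.7%) and without that of CD247 (75.0%). Windows of 100 kb on each side raised the regions from 28 to 48 for GATA3, from 25 to 40 for BHLHE40 and from 75 to 117 for H3K27ac. A −log10 q of at least 5 left 40 of the 75 H3K27ac regions, and the windows were then 5.80% covered by H3K27ac, against 7.29%. The gene records alone were 9.03% covered. Counting an overlap only where the factor summit lay inside an H3K27ac region lowered the share from 67.9% to 39.3% for GATA3 and from 80.0% to 52.0% for BHLHE40; the whole lists were not counted in this way. Within 5 kb of a gene end GATA3 was listed at 8 members, against 5 within 1 kb. The cause of these moves was not tested, other than that wider windows and distances take in more regions. Leaving out each window in turn gave 59.1% to 70.0% for GATA3 regions that overlap BHLHE40, and a median summit distance of 28.5 to 55 bp; the 55 bp came without the CD3 window. Pairs of regions of at most 3000 bp gave 28.5 bp. No paired analysis was possible because the files hold no value per sample. Depth is unknown and limits every count of weak regions.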

Other observations

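The V and J segments, in the windows and outside them, were looked at after the values above were seen, and are given as values only. Of 54 TRAV records on chromosome 14, 3 were overlapped by all 3 lists: TRAV8-4, TRAV14DV4 and TRAV18. Of 61 TRBV records on chromosome 7, 6 were: TRBV4-2, TRBV7-3, TRBV12-2, TRBV13, TRBV12-3 and TRBVB. The share of all gene records overlapped by all 3 lists was not counted. These counts, and those of the J segments below, therefore set nothing apart. As background, the receptor that Jurkat expresses is known to use TRAV8-4 with TRAJ3 and TRBV12-3 with TRBJ1-2. TRAV8-4 (chr14:21894561-21895030) had signal values of 9.07 for GATA3, 7.23 for BHLHE40 and 10.1 for H3K27ac. TRBV12-3 (chr7:142560485-142560931) had 11.4, 8.22 and 9.16. Other segments were higher for the factors: TRBV13 had 90.0 for GATA3 and 16.1 for BHLHE40, TRBV12-2 had 36.7 and 15.5, and TRAV14DV4 had 31.8 and 9.87. For H3K27ac these 3 had 6.15, 2.69 and 8.16, and TRAV8-4 and TRBV12-3 had the highest values of the 9 segments. TRBV7-3 followed closely at 8.63, with 18.2 for GATA3 and 4.59 for BHLHE40.

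Region edges stood close to both of the J segments of that receptor, the only J segments whose distances were measured. The BHLHE40 region of 3781 bp on the V and J side of TRAC starts 23 bp past the end of TRAJ3 (chr14:22543179-22543240), and the first H3K27ac region there starts 84 bp past it. The BHLHE40 region of 4841 bp before TRBC1 starts inside TRBJ1-2 (chr7:142787017-142787064), and the GATA3 and H3K27ac regions under it start 228 bp and 338 bp past that segment. Regions also lay before both segments. Signal values over TRBD1 were 23.7 for BHLHE40 and 11.6 for GATA3, and a place before TRAJ3 had BHLHE40 at 7.72 and H3K27ac at 5.58. Before TRBC1 the J segments stand close together, with TRBJ1-1 ending at chr7:142786927. Around TRAJ3 they are farther apart, with TRAJ4 ending at chr14:22542261 and TRAJ2 starting at chr14:22544071. Whether region edges lie as close to other J segments was not tested, so nothing is drawn from this closeness. All 3 lists overlapped 12 of 14 TRBJ records, which lie under only 2 wide regions of each list, and none of 61 TRAJ records.

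The TRA record also holds a stretch with no region of any list, chr14:22003962-22506265, 502.304 kb long. It contains 69 gene records, with 26 TRAV, 26 TRAJ and TRDC, the constant gene of the δ chain, among them. Of 168595 such gaps on all chromosomes, 222 were at least as long.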
